A study of Mus musculus with 6 samples.

Results

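The genes described here are 48 genes of mitosis, the division of a cell's copied chromosomes into 2 sets. They are cyclins and mitotic kinases, spindle motors, kinetochore proteins, cytokinesis proteins and condensins. The members are a list of names, with no threshold on a measured value, and the list was drawn up with earlier results of these data known. A member was measured by probe sets whose only gene symbol was its own, which gave 47 of the 48 a value, among 18193 genes named in this way. All 47 were bright enough to be tested, as were 13559 of the 18193. The cyclin gene Ccnb1 was not analysed here.

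The values come from Affymetrix mouse arrays of cumulus-oocyte complexes, the oocyte with the layer of granulosa cells that surrounds it. All complexes came from wild type immature female mice that had been given equine chorionic gonadotropin (eCG), a hormone that drives follicle growth, for a period of 48 h. There were 2 arrays in each of 3 groups. One group had received no human chorionic gonadotropin (hCG, the ovulatory hormone), and the others were collected 8 h and 16 h after it. Each array held RNA of pooled complexes, and the labels give neither strain nor age in days. Ovaries were punctured for the group without hCG, per the labels' protocols, whereas both later groups are described as coming from the oviduct, so place of collection and hormone cannot be told apart. The labels also use the word expanded for the complexes without hCG. Nothing in the labels says that the 2 arrays of a group came from separate animals, so p-values cover the spread between the arrays at hand alone, and that spread may be technical.

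Mitotic genes are switched on together late in the cell cycle. B-Myb and FoxM1, bound to the MuvB core, drive them through a short promoter sequence called CHR (cell cycle genes homology region). The DREAM complex represses them through the CHR in resting cells. Many of their promoters also hold CCAAT boxes, a separate short sequence. Cyclin-dependent kinase 1 with A- and B-type cyclins starts mitosis, condensins compact the chromosomes, kinetochores couple them to the spindle, and the checkpoint holds the anaphase-promoting complex until every chromosome is attached. Granulosa cells of a growing follicle divide and leave the cycle after the ovulatory hormone, while the oocyte uses many of the same proteins for its meiotic divisions and stores their messenger RNAs.

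The promoters of the members shared these short sequences, which the choice of members had not used. RefSeq windows of build GRCm38.p6 ran from 250 bases before to 50 bases after the start of each gene. They were matched by gene identifier for 40 members and gave 42 windows. Ect2 and Prc1 each had overlapping windows, which were counted separately. Aurkb, Ccna2, Cdc25c, Incenp, Kif20a, Smc4 and Tpx2 had no match. The letters TTTGAA, as in a CHR, were present on either strand in 31 of 42 windows (73.8%), against 17.9% of 32851 windows of all genes. Within 50 bases of the start they were in 66.7% of member windows and 4.9% of all windows. The letters CCAAT, on either strand, were in 33 of 42 windows (78.6%), against 37.4% of all windows. Both were in 66.7% of member windows and 7.0% of all, and matches that shared a base were found in 1 member window. A match of letters is a description of the sequence and does not show that a factor binds there.

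The stretches from 120 bases before to 30 bases after the start are shown for 6 members that stand for the patterns below, in gene orientation and with TTTGAA and CCAAT (or their reverse complements TTCAAA and ATTGG) in capitals. Ncapg and Spc25 had the largest decreases at 16 h, Ttk fell in both intervals, Ccnb2 fell mainly in the first, and Bub1b and Pttg1 were the members called higher at 16 h than at 8 h.
Ncapg, chr5:45669805-45669954, plus strand: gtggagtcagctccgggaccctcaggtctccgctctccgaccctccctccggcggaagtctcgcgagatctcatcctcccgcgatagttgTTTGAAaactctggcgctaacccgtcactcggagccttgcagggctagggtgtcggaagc
Spc25, chr2:69206184-69206333, minus strand: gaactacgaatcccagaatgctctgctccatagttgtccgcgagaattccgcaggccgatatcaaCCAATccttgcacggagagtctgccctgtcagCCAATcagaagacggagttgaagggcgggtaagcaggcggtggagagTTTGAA
Ttk, chr9:83834569-83834718, plus strand: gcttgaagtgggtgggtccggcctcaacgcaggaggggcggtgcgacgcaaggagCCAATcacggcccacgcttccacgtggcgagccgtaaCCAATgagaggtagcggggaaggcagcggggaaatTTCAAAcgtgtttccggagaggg
Ccnb2, chr9:70421525-70421674, minus strand: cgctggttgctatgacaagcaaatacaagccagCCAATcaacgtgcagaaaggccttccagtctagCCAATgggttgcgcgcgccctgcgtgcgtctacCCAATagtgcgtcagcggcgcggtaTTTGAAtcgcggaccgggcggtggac
Bub1b, chr2:118598091-118598240, plus strand: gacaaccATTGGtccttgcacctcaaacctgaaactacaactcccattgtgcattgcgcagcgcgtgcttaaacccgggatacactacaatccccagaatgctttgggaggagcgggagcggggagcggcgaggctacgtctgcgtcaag
Pttg1, chr11:43425952-43426101, minus strand: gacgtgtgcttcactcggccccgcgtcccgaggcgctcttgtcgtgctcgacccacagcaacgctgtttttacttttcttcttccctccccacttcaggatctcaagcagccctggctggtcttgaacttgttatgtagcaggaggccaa
In the stretches of Ncapg, Spc25, Ttk and Ccnb2 the TTTGAA letters begin between positions -30 and 25 from the start. Spc25 and Ttk each show a pair of CCAAT boxes before the start, and Ccnb2 shows 3. Bub1b shows a single CCAAT match, at position -113, and its TTTGAA lies at position 41, outside the stretch printed. Ccnb2 has a further TTTGAA at position -167 and Ncapg a CCAAT at position -176, both also outside it. Pttg1 had neither match in its window.

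Nearly all mitosis genes were lower 16 h after hCG than without it. Compared with no hCG, 45 of 47 fell and none rose by limma with Benjamini-Hochberg adjustment over all probe sets tested (adjusted p under 0.05), where 20.8% of the 13559 genes tested fell and 20.8% rose. The 2 members not called were Pttg1 and Ect2. The median difference of the members was -1.29 on the log2 scale, with a range from -2.60 to 0.09, and that of all genes tested was -0.02. In 46 of 47 members both 16 h arrays lay below both arrays without hCG, which held for 35% of all genes tested. With any 1 array left out, between 39 and 45 members were called.

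The decrease was spread over both intervals. At 8 h against no hCG, 35 of 47 members fell and none rose, with a median difference of -0.75, while 20.5% of all genes tested fell and 16.9% rose. From 8 h to 16 h, 29 fell and 2 rose, with a median of -0.70, while 9.12% of all genes fell and 11.8% rose. Medians of all genes were -0.02 and 0.01. In 34 of 47 members every array without hCG lay above both 8 h arrays, and these above both 16 h arrays, an order found in 9.54% of all genes tested. The 3 comparisons share arrays, so their counts are not independent.

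The interval counts rested on few arrays. The 35 members called at 8 h became 20 without 8 h replicate 1. The 31 called in either direction between 8 h and 16 h, against 20.9% of all genes tested, became 17 without 8 h replicate 1, 9 without 8 h replicate 2, 19 without 16 h replicate 1 and 9 without 16 h replicate 2. The 21 members called lower in each interval, against 2.41% of all genes tested, became 9, 6, 14 and 7 in the same order. No called member changed sign in any of these fits. Single members are therefore described first by the difference between 16 h and no hCG, and an interval is named as a change where it was called whichever array was left out, or with the exceptions given beside it.

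**Figure D1:**
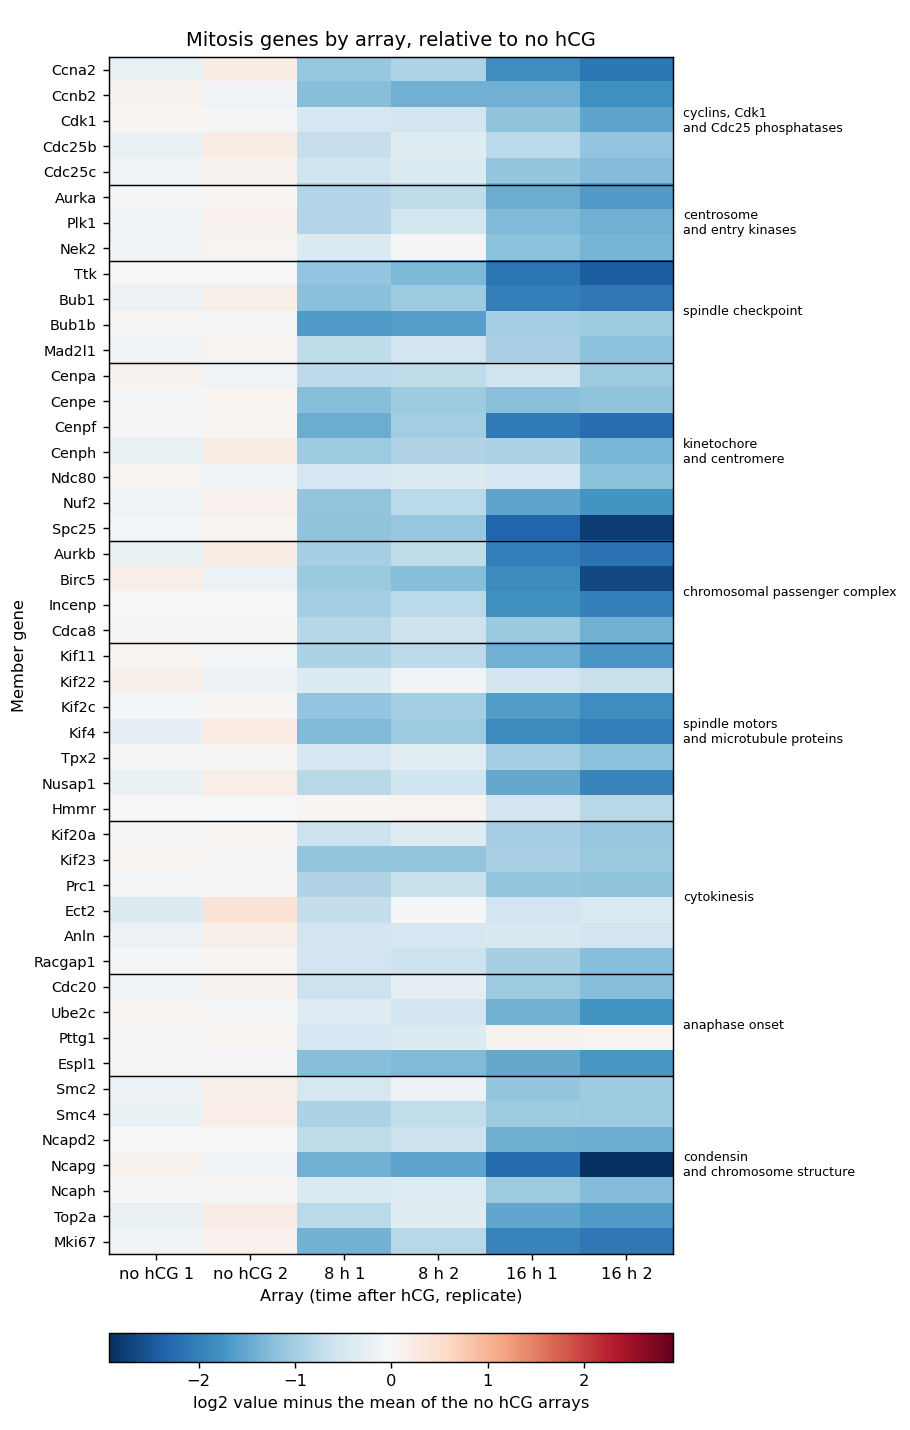
Heat map of the 47 members (vertical axis, grouped by role) in the 6 arrays (horizontal axis), coloured by the log2 value minus the mean of the no hCG arrays. Blue deepens from 8 h to 16 h in most members, with medians of -0.75 at 8 h and -1.29 at 16 h, whereas Bub1b and Pttg1 are higher at 16 h than at 8 h.

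Other cell types of the complex moved over the same times. Defining markers of the oocyte and of granulosa cells were well above the dim limit of 5.62 in the arrays without hCG, where Gdf9, an oocyte growth factor, read 13.40 and 13.08 and Fshr, the follicle-stimulating hormone receptor of granulosa cells, read 12.26 and 12.16. All 23 oocyte markers tested of 25 fell by 8 h, and their summed linear intensity was 83955 to 97872 without hCG, 18943 to 20179 at 8 h and 24197 to 28299 at 16 h. Of 15 granulosa and cumulus markers, 13 were lower at 16 h than without hCG, and their sum went from between 130084 and 135148 to between 46137 and 51907. Of 8 theca and stroma markers tested, 6 were lower at 16 h than without hCG and none was higher, and the list's sum went from between 3579 and 3861 to between 1188 and 1219. Among all genes tested, 20.5% were lower at 8 h and 20.8% at 16 h than without hCG. For the members the sum was 141200 to 151481 without hCG, 82280 to 92259 at 8 h and 63916 to 70916 at 16 h.

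Leukocyte markers went the other way, with 15 of 19 higher at 16 h than at 8 h and sums of 4150 to 4787 in the 4 earlier arrays against 10850 to 10886 at 16 h. The pan-leukocyte gene Ptprc lay between 4.90 and 5.55 in the earlier arrays, under the dim limit, and read 7.64 and 7.98 at 16 h. Of 7 oviduct epithelium markers tested, 3 were lower at 8 h than without hCG, and 5 were higher at 16 h than at 8 h. At 16 h against no hCG, 4 were higher and 1 lower. The list's sum was 3587 to 3942 without hCG, 2143 to 2188 at 8 h and 9600 to 11238 at 16 h. Of all genes tested, 11.8% were higher at 16 h than at 8 h. Of 7 endothelial markers only 3 were tested. At 16 h against no hCG 2 were higher, against 20.8% of all genes tested, with a range of differences from -0.43 to 2.96. The sum of the 7 was 373 to 408 without hCG and 698 to 723 at 16 h. The sum of 3 erythrocyte markers lay between 286 and 485 in all arrays. The part of these cell types in the changes of the mitosis genes was not tested. In pooled complexes, fewer cells of a type and less RNA per cell cannot be told apart.

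Among the genes that start mitosis, all 5 cyclin, Cdk1 and Cdc25 members measured were lower at 16 h than without hCG. Their median difference was -1.37. In this comparison 20.8% of all genes tested were lower. Ccna2, cyclin A2, read 11.72 and 12.13 without hCG, 10.81 and 11.01 at 8 h and 10.09 and 9.80 at 16 h on the log2 intensity scale. The 3 pairs of arrays did not overlap and stood in the order of time. The gene fell by 1.98 ± 0.19 (SE, n = 2 arrays per group), 3.93-fold (limma adjusted p = 3.54e-05). Ccnb2, cyclin B2, read 12.35 and 12.12, then 10.99 and 10.83, then 10.83 and 10.44. Most of its decrease of 1.61 ± 0.18 (adjusted p = 9.67e-05) lay before 8 h, where it fell by 1.32 ± 0.18 (adjusted p = 0.000382), and the later difference of -0.28 was not called (adjusted p = 0.367). Cdk1, the kinase these cyclins activate, fell by 1.37 ± 0.17, and the Cdc25 phosphatases that switch it on fell by 1.20 (Cdc25c) and 0.97 (Cdc25b). Without 16 h replicate 2 the difference of Cdc25b was -0.79 and was not called (adjusted p = 0.0572).

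The 3 kinases of the centrosome and of mitotic entry also fell by 16 h, against 20.8% of all genes tested. Their median difference was -1.35. Aurka, Aurora kinase A, which matures centrosomes, read 11.30 and 11.43 without hCG, 10.50 and 10.62 at 8 h and 9.92 and 9.71 at 16 h. Its 16 h arrays were below all others, and it fell by 1.55 ± 0.16 (limma adjusted p = 4.72e-05). Plk1, Polo-like kinase 1, read 10.59 and 10.86, then 9.87 and 10.17, then 9.43 and 9.31, a decrease of 1.35 ± 0.17 (adjusted p = 0.000225). Nek2, a kinase that separates centrosomes, differed by -0.23 ± 0.17 at 8 h (adjusted p = 0.375) and was lower by 16 h, with a difference of -1.29 ± 0.17 (adjusted p = 0.000298).

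The spindle checkpoint genes were all lower at 16 h than without hCG, against 20.8% of all genes tested, but did not share one course. Ttk, the kinase Mps1 that starts checkpoint signalling, read 10.17 and 10.14 without hCG, 8.99 and 8.84 at 8 h and 8.03 and 7.74 at 16 h. It fell by 1.24 ± 0.16 in the first interval (limma adjusted p = 0.0003) and by 1.03 ± 0.16 in the second (adjusted p = 0.00202), and by 2.27 ± 0.16 over both, 4.81-fold. Both of its steps were called whichever array was left out. Bub1, a kinetochore kinase of the checkpoint, read 11.05 and 11.41, then 10.01 and 10.17, then 9.19 and 9.14, a decrease of 2.06 ± 0.17 (adjusted p = 1.29e-05). Mad2l1, which holds Cdc20, fell by 1.08 ± 0.17 (adjusted p = 0.000703).

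Bub1b, which encodes the checkpoint protein BubR1, turned back after 8 h. It read 12.97 and 12.88 without hCG, 11.27 and 11.32 at 8 h and 11.92 and 11.89 at 16 h. The 16 h arrays lay between the other groups, with no overlap. Bub1b fell by 1.63 ± 0.15 by 8 h (limma adjusted p = 2.62e-05), the largest first step of any member, and was 0.61 ± 0.15 higher at 16 h than at 8 h (adjusted p = 0.0181). That second step lost its call without any 1 of the 8 h or 16 h arrays, with values from 0.58 to 0.63 and adjusted p from 0.0804 to 0.144. A second probe set of Bub1b gave -1.73 ± 0.15 and 0.54 ± 0.15 for the same steps. The third, much dimmer, fell by 0.92 ± 0.17 by 8 h (limma adjusted p = 0.00237). Its second step of 0.47 ± 0.17 was not called (adjusted p = 0.0947). Nor was its difference of -0.46 ± 0.17 between 16 h and no hCG (adjusted p = 0.0637).

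Of the kinetochore and centromere genes, all 7 were lower at 16 h than without hCG, against 20.8% of all genes tested. Their median difference was -1.20, with a wide range from -2.55 to -0.83. Spc25, a subunit of the NDC80 complex that grips microtubules, read 11.73 and 11.85 without hCG, 10.62 and 10.68 at 8 h and 9.47 and 9.02 at 16 h. It fell by 1.14 ± 0.18 and then by 1.41 ± 0.18 (limma adjusted p = 0.000903 and 0.000581), both called whichever array was left out, and by 2.55 ± 0.18 in all, 5.86-fold. Its partners in the complex fell by less, Nuf2 by 1.65 ± 0.18 and Ndc80 by 0.84 ± 0.22 (adjusted p = 8.03e-05 and 0.0143), though the differences between these genes were not tested. Cenpf, a large protein of the outer kinetochore, read 11.02 and 11.16, then 9.64 and 10.08, then 9.01 and 8.86, a decrease of 2.15 ± 0.18 (adjusted p = 1.47e-05). Cenpa, the histone H3 variant that marks the centromere, had 1 of the smaller decreases, 0.83 ± 0.19 (adjusted p = 0.00677), and its 8 h and 16 h arrays overlapped. Without 16 h replicate 2, neither Cenpa (-0.59, adjusted p = 0.0623) nor Ndc80 (-0.48, adjusted p = 0.0994) was called. Cenph, a protein of the inner kinetochore, was the dimmest member and fell by 1.13 ± 0.20. At 16 h against no hCG, dimmer probe sets of Cenpa (-0.14 ± 0.18), Spc25 (-0.19 ± 0.19) and Cenpf (-0.70 ± 0.26) were not called. Their limma adjusted p were 0.612, 0.492 and 0.0585. The dimmer probe set of Cenpe was lower (-0.59 ± 0.20, adjusted p = 0.0447).

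The chromosomal passenger complex, which corrects wrong attachments and later steers cytokinesis, had the largest median decrease of the 9 role groups, -2.0 over its 4 genes. Birc5, survivin, read 11.71 and 11.37 without hCG, 10.45 and 10.29 at 8 h and 9.66 and 8.89 at 16 h. Its 16 h arrays differed from each other by more than those of most members, and it fell by 2.26 ± 0.25 (limma adjusted p = 7.11e-05). Aurkb, Aurora kinase B, the enzyme of the complex, read 10.68 and 11.11, then 9.92 and 10.14, then 8.86 and 8.72. It fell by 1.24 ± 0.19 from 8 h to 16 h (adjusted p = 0.00145), called whichever array was left out, and by 2.10 ± 0.19 in all (adjusted p = 1.93e-05). Incenp, the scaffold, fell by 1.89 ± 0.16 and Cdca8, borealin, by 1.24 ± 0.17.

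The 7 spindle motors and microtubule proteins were all lower at 16 h than without hCG, against 20.8% of all genes tested. Their median difference was -1.56. Kif4, a chromokinesin, read 10.02 and 10.50 without hCG, 8.97 and 9.19 at 8 h and 8.40 and 8.25 at 16 h, a decrease of 1.93 ± 0.19 (limma adjusted p = 4.18e-05). Kif2c, a kinesin that depolymerises microtubules, read 11.69 and 11.78, then 10.57 and 10.74, then 10.09 and 9.91, a decrease of 1.73 ± 0.16 (adjusted p = 2.25e-05). In both genes the 3 groups stood apart in the order of time. Nusap1, which bundles spindle microtubules, fell by 1.72, the bipolar kinesin Kif11 by 1.56, Tpx2, an activator of Aurora A, by 1.09 and Kif22 by 0.60. A dimmer probe set of Tpx2 fell by 2.10 ± 0.18 (adjusted p = 1.68e-05), and its others, dimmer still, were not called. The call of Kif22 was lost without no hCG replicate 1, 16 h replicate 1 or 16 h replicate 2, with adjusted p from 0.0763 to 0.118. That value comes from the brightest probe set of Kif22, and its 2 other probe sets fell by 1.48 ± 0.21 and 1.60 ± 0.21 (adjusted p = 0.000477 and 0.000229), called whichever array was left out.

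Hmmr, a spindle-associated hyaluronan receptor, was the member whose probe sets had opposite calls. The brightest, used here for the gene, read 9.85 and 9.85 without hCG, 9.90 and 9.92 at 8 h and 9.32 and 9.03 at 16 h. It differed by 0.06 ± 0.16 at 8 h (limma adjusted p = 0.815) and was lower at 16 h than without hCG by -0.67 ± 0.16 (adjusted p = 0.00801), a call lost without 16 h replicate 2 (-0.53, adjusted p = 0.0659). Another, dim probe set read 5.63 and 5.82 without hCG, near the dim limit, then 6.92 and 7.26, then 7.12 and 6.28. It was higher by 1.36 ± 0.26 at 8 h (adjusted p = 0.00266). Its difference of 0.98 ± 0.26 at 16 h (adjusted p = 0.0142) was not called without 16 h replicate 1, where adjusted p was 0.111.

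By the probe set used for each gene, the cytokinesis genes changed least, with a median difference of -1.02. At 16 h, 5 of 6 were lower than without hCG, against 20.8% of all genes tested. Prc1, which crosslinks the microtubules of the spindle midzone, read 12.19 and 12.26 without hCG, 11.35 and 11.57 at 8 h and 11.09 and 11.06 at 16 h, a decrease of 1.15 ± 0.15 (limma adjusted p = 0.000279). Racgap1, a subunit of centralspindlin, read 10.28 and 10.40, then 9.79 and 9.72, then 9.37 and 9.10, a decrease of 1.11 ± 0.16 (adjusted p = 0.000472). Both were ordered by time with no overlap. A second, dimmer probe set of Racgap1 fell by more, 1.98 ± 0.18 (adjusted p = 2.21e-05). Kif20a fell by 1.03, Kif23, the motor of centralspindlin, by 1.01 and the scaffold Anln, anillin, by 0.52. Anln, measured by its brighter probe set, lost its call without any 1 array other than no hCG replicate 1, with adjusted p from 0.0644 to 0.153.

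A dimmer probe set of Anln, looked at after its values were seen, turned back after 8 h. It read 8.04 and 8.23 without hCG, 6.67 and 6.97 at 8 h and 7.49 and 7.37 at 16 h, so that the 16 h arrays lay between the other groups. It fell by 1.32 ± 0.17 by 8 h (limma adjusted p = 0.000241), called whichever array was left out. It was 0.62 ± 0.17 higher at 16 h than at 8 h (adjusted p = 0.0322), a call lost without any 1 of the 8 h or 16 h arrays (0.0588 to 0.282). Its second step minus its first was 1.93 ± 0.29 (adjusted p = 0.00122), whereas that of the brighter probe set was 0.53 ± 0.29 and was not called (adjusted p = 0.244).

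Ect2, the exchange factor that activates RhoA at the division plane, was called in no comparison. It read 9.76 and 10.55 without hCG, 9.46 and 10.11 at 8 h and 9.59 and 9.71 at 16 h. The 2 arrays without hCG differed from each other by more than the group means did, and the difference at 16 h was -0.51 ± 0.28 (limma adjusted p = 0.194). Without no hCG replicate 1 it was -0.77 at 8 h (adjusted p = 0.0387) and -0.91 at 16 h (adjusted p = 0.0166).

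Of the 4 genes of anaphase onset, 3 were lower at 16 h than without hCG, against 20.8% of all genes tested. Espl1, separase, the protease that cuts cohesin, read 10.67 and 10.59 without hCG, 9.39 and 9.34 at 8 h and 9.13 and 8.93 at 16 h. It fell by 1.27 ± 0.15 by 8 h (limma adjusted p = 0.000171) and by 1.60 ± 0.15 in all (adjusted p = 3.24e-05). Ube2c, the ubiquitin-conjugating enzyme of the anaphase-promoting complex, read 11.83 and 11.71 without hCG, 11.38 and 11.22 at 8 h and 10.37 and 10.01 at 16 h. Its difference of -0.47 ± 0.17 at 8 h was not called (adjusted p = 0.0641), and it fell by 1.11 ± 0.17 between 8 h and 16 h (adjusted p = 0.00182), called whichever array was left out. The test of the second step against the first was not called for Ube2c (-0.64 ± 0.30, adjusted p = 0.174). Cdc20, the activator of the complex, fell by 1.16 ± 0.17 in all.

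Pttg1, securin, the inhibitor of separase, was the only member whose 16 h arrays lay above those without hCG. Its brightest probe set read 13.69 and 13.79 without hCG, 13.26 and 13.34 at 8 h and 13.84 and 13.82 at 16 h, the highest values of the members' chosen probe sets. The net difference was 0.09 ± 0.15 (limma adjusted p = 0.686). The steps of -0.44 ± 0.15 and 0.53 ± 0.15 (adjusted p = 0.0436 and 0.0331) were each lost without single arrays, the first without any 1 of the 6 (0.0595 to 0.226) and the second without any 1 of the 8 h and 16 h arrays (0.121 to 0.225). The first was also lost with each array centred on its median (0.0839) and with only the compared groups fitted (0.0625).

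A less bright probe set of Pttg1 gave the same course with larger steps. It read 11.30 and 11.32 without hCG, 10.25 and 10.28 at 8 h and 11.34 and 11.01 at 16 h, so that the 16 h arrays overlapped those without hCG. It fell by 1.05 ± 0.16 and then was higher by 0.91 ± 0.16 (limma adjusted p = 0.000816 and 0.00399). Both steps were called whichever array was left out. The third probe set of Pttg1, near 7 on the log2 scale, was called in no comparison. These probe sets were looked at after the values of the brightest had been seen.

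The 7 condensin and chromosome structure genes were all lower at 16 h than without hCG, against 20.8% of all genes tested. Their median difference was -1.44. Ncapg, a condensin I subunit, read 10.20 and 10.00 without hCG, 8.69 and 8.56 at 8 h and 7.84 and 7.17 at 16 h. Its decrease of 2.60 ± 0.22, 6.04-fold (limma adjusted p = 1.38e-05), was the largest of the members. A second, dimmer probe set of Ncapg had a 16 h difference of -0.79 ± 0.31 that was not called (adjusted p = 0.0755), with 16 h arrays at 7.28 and 8.47. The other condensin I subunits Ncapd2 and Ncaph fell by 1.44 and 1.17, and the shared ATPases Smc2 and Smc4 by 1.09 and 1.05.

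Mki67, the coat protein of mitotic chromosomes that serves as the Ki-67 proliferation marker, read 11.999 and 12.26 without hCG, 10.74 and 11.32 at 8 h and 10.17 and 10.04 at 16 h. It fell by 2.03 ± 0.21, 4.08-fold (limma adjusted p = 5.09e-05). Top2a, topoisomerase II alpha, which untangles sister chromatids, fell by 1.59 ± 0.20 (adjusted p = 0.000198).

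**Figure D2:**
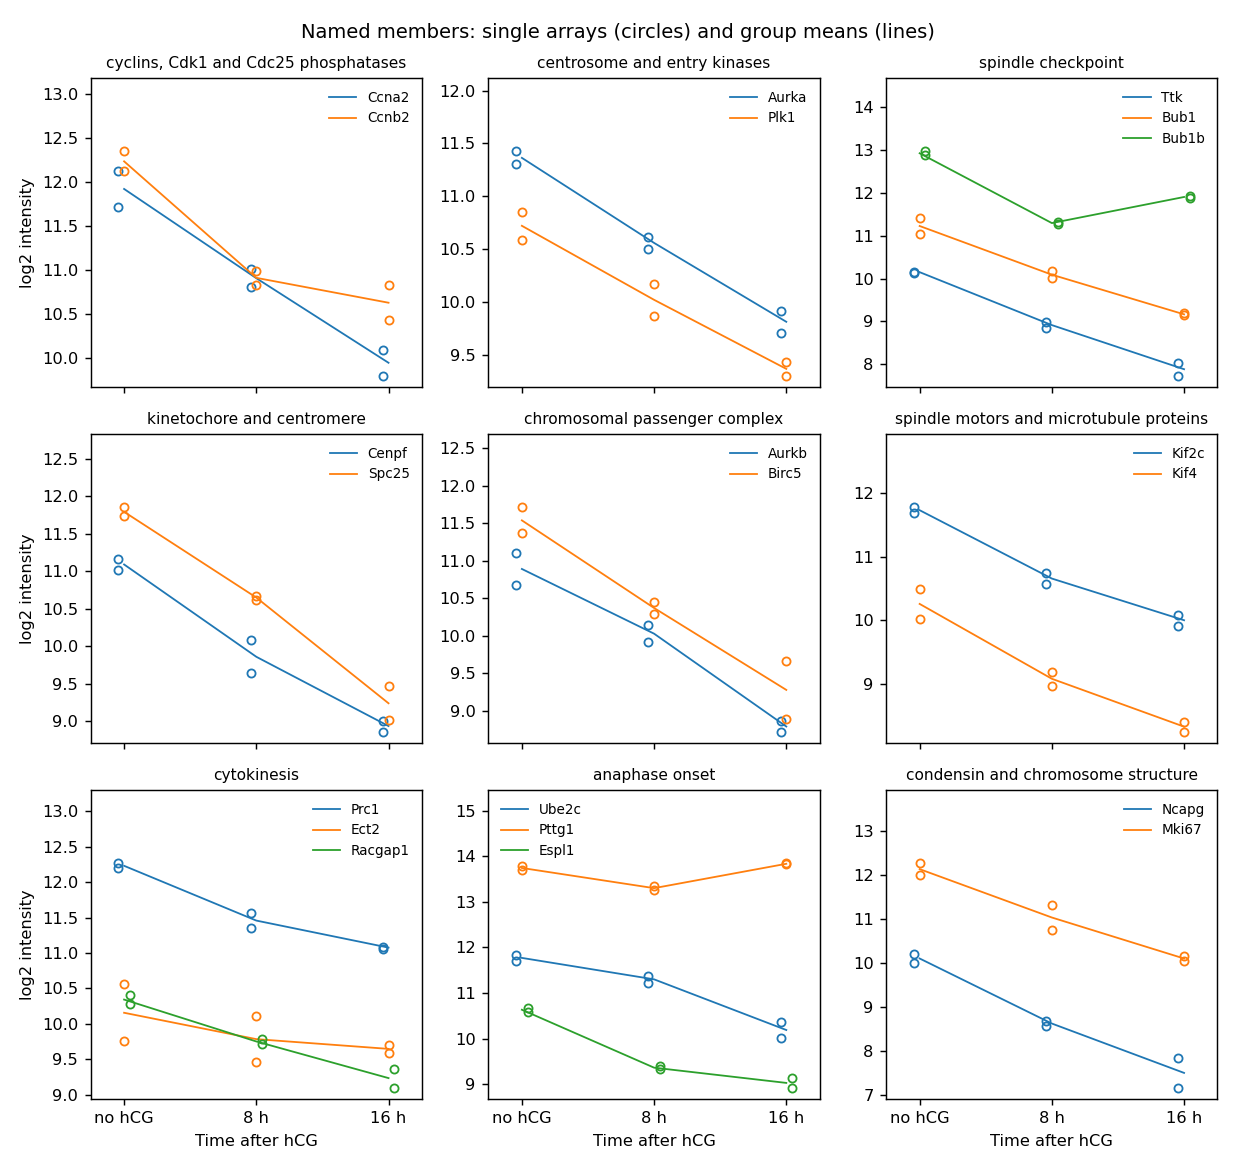
Log2 intensity (vertical axes, each with its own range) of 21 members in single arrays (circles) and as group means (lines) without hCG, at 8 h and at 16 h, in 9 panels by role. Most lines go down at each step, such as Ttk from 10.17 and 10.14 to 8.03 and 7.74, while Bub1b and Pttg1 turn upward after 8 h and the circles of Ect2 overlap.

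For 6 members the second step differed from the first by a direct test, and for all 6 the later step was the less negative or the opposite. The test compared the 8 h to 16 h change with the no hCG to 8 h change in the same limma fit, and 15.5% of all genes tested were called in that direction and 10.5% in the other. The 6 members are 12.8% of 47, below the share of all genes, so the count says nothing particular to the members. Some dimmer probe sets, not used for their gene, were called in the other direction. They were of Nek2 (-1.16 ± 0.31, adjusted p = 0.0223) and Hmmr (-1.75 ± 0.45 and -1.42 ± 0.28, adjusted p = 0.0194 and 0.00569). With the mean over a gene's probe sets, 8 members were called higher and 2 lower. Bub1b had the largest difference, 2.24 ± 0.25 (adjusted p = 0.000234), and it alone of the 6 was called whichever array was left out (0.000132 to 0.00606). The other differences were 1.31 ± 0.26 for Kif23 (adjusted p = 0.00548), 1.08 ± 0.27 for Cenpe (0.0164), 0.98 ± 0.26 for Pttg1 (0.0218), 0.94 ± 0.27 for Espl1 (0.0315) and 1.04 ± 0.32 for Ccnb2 (0.0407). Each of these 5 lost its call without either 8 h array, with adjusted p from 0.0645 to 0.291. Without 8 h replicate 1 or without 8 h replicate 2 the count was 1 member, and without 16 h replicate 1 it was 3. The call of Ccnb2 was also lost with arrays centred on their medians (0.0537) and without the filter on dim probe sets (0.0502).

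Kif23 and Cenpe, which are named here because of this result, were among the 16 members not called between 8 h and 16 h. Kif23 read 11.79 and 11.69 without hCG, 10.58 and 10.58 at 8 h and 10.80 and 10.66 at 16 h. Cenpe, a kinetochore motor that brings chromosomes to the spindle equator, read 10.98 and 11.08, then 9.79 and 9.98, then 9.80 and 9.85. In Cenpe the 8 h and 16 h arrays overlapped, and in Kif23 both 16 h arrays were slightly higher, with a difference of 0.15 ± 0.15 that was not called (limma adjusted p = 0.599). In the test of the intervals, dimmer probe sets of Kif23 (1.07 ± 0.51, adjusted p = 0.182) and Cenpe (0.88 ± 0.35, adjusted p = 0.107) were not called. Of the 6 genes, Ccnb2, Espl1, Kif23 and Bub1b had TTTGAA in their promoter window, and Cenpe and Pttg1 did not.

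Genes of the oocyte had the same kind of course in part. Of 10 oocyte meiosis genes tested, of 16 with a named probe set, 7 had a second step above the first by the same test, as did 16 of the 23 oocyte markers tested. That direction was called for 15.5% of all genes tested. Mos, the kinase that holds the mature oocyte in metaphase II, read 11.07 and 10.95 without hCG, 8.48 and 8.25 at 8 h and 9.64 and 9.44 at 16 h. Aurkc, the Aurora kinase of germ cells, read 10.65 and 10.60, then 8.21 and 8.08, then 9.67 and 9.74. Mos and Aurkc fell by 8 h and rose afterwards (Mos by 1.17 ± 0.16, adjusted p = 0.00095; Aurkc by 1.56 ± 0.15, adjusted p = 0.00011, limma), and both steps were called whichever array was left out. They do not stand for their lists. From 8 h to 16 h, 3 of the 10 oocyte meiosis genes rose, 1 fell and 6 were not called. Of the 23 oocyte markers, 8 rose, 7 fell and 8 were not called, with a median difference of -0.03. In that interval 11.8% of all genes tested rose and 9.12% fell. The part of the oocyte's RNA in the course of Bub1b, Pttg1 and the other 4 genes was not tested.

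**Figure D3:**
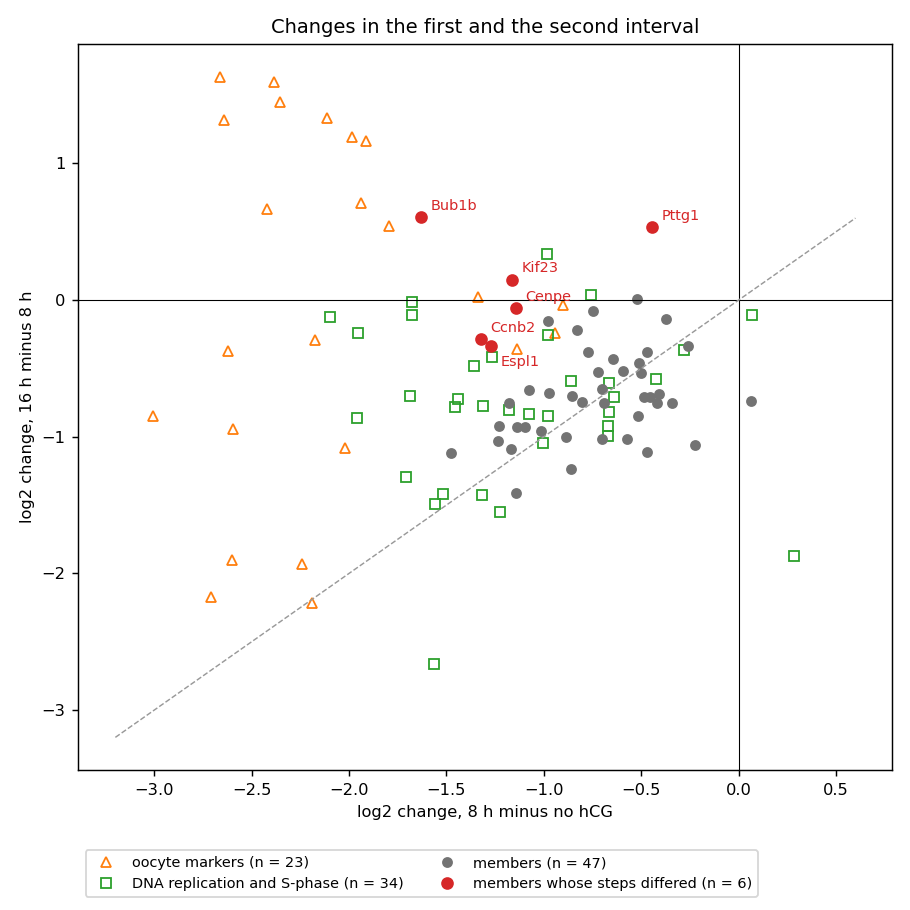
Log2 change from 8 h to 16 h (vertical axis) against the change from no hCG to 8 h (horizontal axis) for the 47 members (grey, with the 6 whose steps differed in red), 34 genes of DNA replication (squares) and 23 oocyte markers (triangles); points on the dashed line changed equally in both intervals. Most members lie below 0 on both axes, while Bub1b and Pttg1 lie above 0 on the vertical axis at 0.61 and 0.53.

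Mitosis genes outside the list moved in the same direction. Of 72 further genes of the spindle, kinetochore and mitotic exit that were tested, 61 were lower and 1 higher at 16 h than without hCG, with a median difference of -1.15. In this comparison 20.8% of all genes tested were lower and 20.8% higher. Aspm, a spindle pole protein, read 12.41 and 12.47 without hCG, 10.58 and 10.71 at 8 h and 9.85 and 9.51 at 16 h, and fell by 2.76 ± 0.17 (limma adjusted p = 1.77e-06). Mis18a, which loads Cenpa onto centromeres, was the gene that rose, from 11.57 and 11.50 to 13.17 and 12.92, by 1.51 ± 0.17 (adjusted p = 7.84e-05). Cks2, a small partner of Cdk1 that oocytes also need, differed by 0.10 ± 0.19 and was not called (adjusted p = 0.726).

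Genes of DNA replication, used earlier in the cell cycle, fell further by median. All but 1 of 34 tested were lower at 16 h, none was higher, and the median difference was -1.83 against -1.29 for the members, a contrast between lists that was not tested. The anaphase-promoting complex, whose subunits are made throughout the cycle, had a median difference of -0.20. At 16 h, 3 of its 13 genes were lower and none higher. That share is near the 20.8% of all genes tested that were lower.

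Of 22 genes of the MuvB, DREAM, E2F and FoxM1 system, 10 were lower and 2 higher at 16 h than without hCG, with a median of -0.28. In this comparison 20.8% of all genes tested were lower and 20.8% higher. Mybl2, which encodes B-Myb, read 9.16 and 8.76 without hCG, 7.62 and 7.44 at 8 h and 6.67 and 6.18 at 16 h, a decrease of 2.54 ± 0.21 (limma adjusted p = 1.25e-05). Foxm1 read 9.08 and 8.95, then 8.13 and 8.19, then 7.47 and 7.55, a decrease of 1.51 ± 0.15 (adjusted p = 4.12e-05). Cdkn1a, the cell cycle inhibitor p21, went the other way, from 9.17 and 8.86 to 11.39 and 11.37 at 8 h and 11.93 and 12.12 at 16 h, and rose by 3.01 ± 0.17 in all (adjusted p = 1.12e-06). In these 3 genes the groups did not overlap, and their first step and net difference were called whichever array was left out. Whether they act on the members was not tested.

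**Figure D4:**
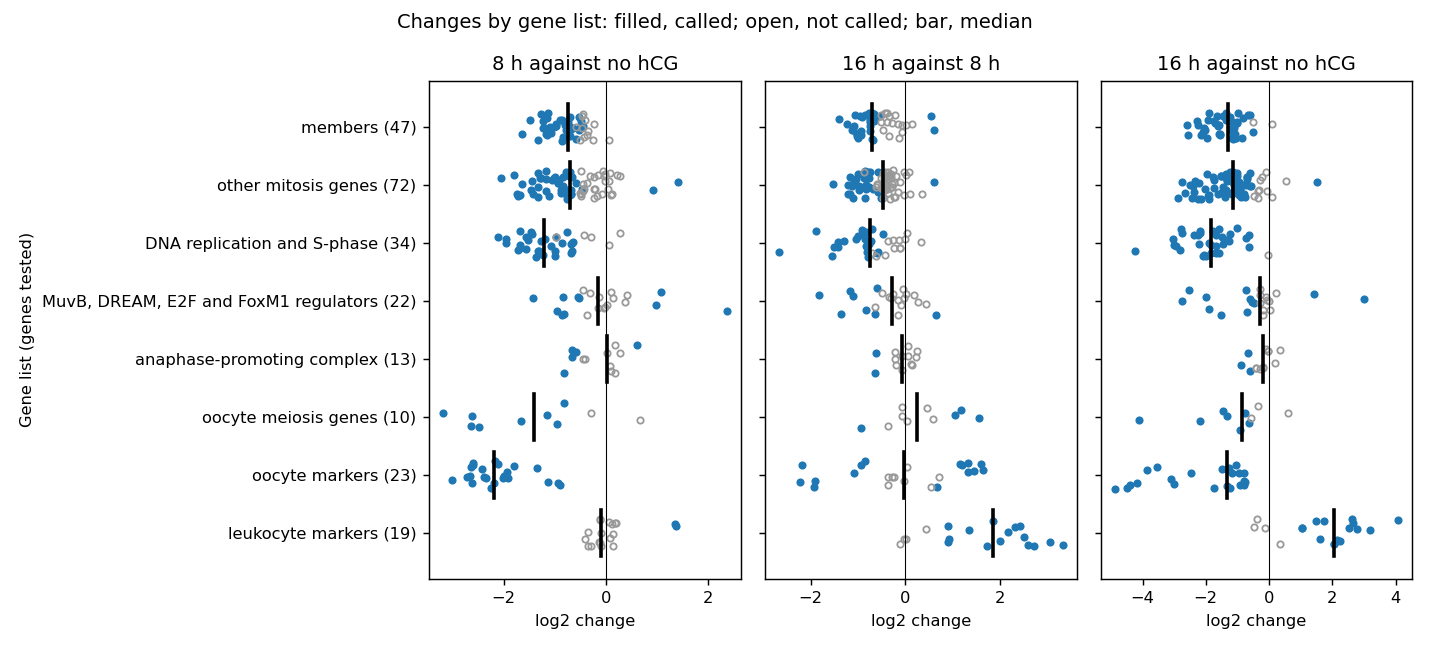
Log2 change of single genes (horizontal axes) by gene list (vertical axis) in the 3 comparisons, with filled points for genes called, open points for genes not called and bars for the median of each list. At 16 h against no hCG the median of the members is -1.29 and that of the replication genes -1.83, while the anaphase-promoting complex lies at -0.20 and the leukocyte markers at 2.05.

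Promoter letters differed between these lists as well. TTTGAA was in 50.7% of 69 windows of the further mitosis genes and in 16.7% of 36 windows of the replication genes, against 73.8% of the members' windows and 17.9% of all. CCAAT was in 62.3% and 58.3%, and the windows of 22 oocyte markers held TTTGAA in 9.1% and CCAAT in 11 of 22 cases.

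Within the members, probe sets of one gene mostly gave the same direction. Of 106 member probe sets 93 were tested, and at 16 h against no hCG 74 were lower, against 18.3% of all probe sets tested, and 1 was higher, the dim Hmmr probe set. Hmmr was the only 1 of 29 members with several tested probe sets that had opposite calls in any of the 3 comparisons. Arrays of one group correlated at 0.991 to 0.996 over all probe sets and arrays of different groups at 0.943 to 0.979, so no array stood apart from its own group. Array medians differed by at most 0.125 on the log2 scale.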

How the data were processed

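The deposited table held 1 log2 intensity per probe set and array for 6 arrays of biotin-labelled cRNA, per the labels. That the scale is log2 follows from the range of the values. The authors' software, background correction and normalization are not given in the sources used here, and no detection calls were used, so the signal over background is unknown. Array medians differed by 0.125, under a limit of 0.2, so values were used as deposited. Of 45101 probe sets, 64 controls were left out, and probe sets whose 6-array mean was below the 40th percentile, 5.62, were not tested, which left 27022.

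Genes were named through the platform annotation, from the 34945 probe sets with 1 symbol, and each by its probe set of highest mean. A model of group means over the 6 arrays was fitted by limma 3.58.1 in R 4.3.3 (3 residual and 6.43 prior degrees of freedom), two-sided, with Benjamini-Hochberg adjustment over the 27022 probe sets. All adjusted p-values come from this fit. On simulated data at this size it recovered 91%, 90% and 97% of probe sets changed by 1 on the log2 scale. These are for the first interval, the second interval and both together. In the same order it also called 22, 10 and 19 unchanged probe sets. Each simulation changed 100 probe sets by 1 and 100 by 2, far fewer than were called in the data.

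Values by array are given for the 2 members of largest 16 h difference in each role group. They are also given for members called against the majority or in no comparison, and for Hmmr, whose probe sets had opposite calls. The few others were chosen after their values were seen. The members and lists were chosen with earlier results of these data known. Alternatives changed the normalization, filter, probe set per gene, variance model, samples fitted, replicate block, or left out 1 array. The number of arrays limits the precision.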

Additional observations from a re-analysis of the deposited data

Results flagged for a closer look

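In 6 members the change from 8 h to 16 h differed from the change from no hCG to 8 h by a direct limma test. They are 12.8% of the members, against 15.5% of all genes tested that were called in that direction. The second change minus the first was 2.24 for Bub1b, 1.31 for Kif23, 1.08 for Cenpe, 1.04 for Ccnb2, 0.98 for Pttg1 and 0.94 for Espl1, on the log2 scale. The value for Bub1b was called whichever array was left out, and the other 5 lost their call without either 8 h array.

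Among probe sets that were not used for their gene, 2 of Hmmr were higher at 8 h than without hCG, by 1.36 and 0.82 on the log2 scale, while the brightest probe set of Hmmr was not. The second of these had an adjusted p of 0.0509 without 8 h replicate 2. Groups of 2 arrays are too small for a test of single outlying arrays.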

How the results depend on the processing

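No called member changed sign under any alternative, and the difference between 16 h and no hCG lost its call without single arrays for Anln, Cdc25b, Cenpa, Hmmr, Kif22 and Ndc80 among the 45 members called. With 1 array left out, the probe sets called ranged from 6109 to 9450 at 8 h against no hCG (9167 with all arrays), from 2518 to 6340 at 16 h against 8 h (4922) and from 7312 to 10345 at 16 h against no hCG (10072). The members called ranged from 20 to 36, from 9 to 33 and from 39 to 45, and those whose intervals differed from 1 to 7. The mean over a gene's probe sets gave 10 members whose intervals differed (8 higher, 2 lower) in place of 6. The other settings gave 30 to 40, 30 to 33 and 44 to 45 members called. At 8 h against no hCG, the mean over a gene's probe sets gave 39 members lower and 1 higher. It was the only setting with a member called higher there. Whether replicate numbers pair the arrays is undecided, since deviations of same-numbered arrays correlated at 0.468 (no hCG and 8 h), 0.001 (no hCG and 16 h) and 0.135 (8 h and 16 h). With the replicate number as a block, 37, 32 and 45 members were called in the 3 comparisons and 6 in the test of the intervals, against 35, 31, 45 and 6. Signal over background is unknown, so the size of changes in dim probe sets is uncertain.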
